A study of Mus musculus with 80 samples.

Results

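A set of 10 genes of the glucagon and cyclic AMP (cAMP) pathway were followed in nuclear RNA of mouse liver across cell type, nuclear fraction, feeding and time. They were taken by gene symbol from the table of read counts, which lists 20105 genes, and all 10 were found there: Gcgr, Creb1, Crem, Crtc2, Sik1, Sik2, Pde4b, Pde4d, Prkaca and Adcy6. All 10 passed the filter on low counts in every fit, and the lowest count of any of them in a tagged library was 144 reads, for Sik1.

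Glucagon is the pancreatic hormone of the fasted state. It binds its receptor on hepatocytes, the receptor activates the stimulatory G protein and adenylyl cyclase, and the cAMP that is made releases the catalytic subunits of protein kinase A (PKA). PKA phosphorylates the transcription factor CREB and inhibits the salt-inducible kinases (SIKs), which otherwise hold the CREB coactivator CRTC2 in the cytoplasm; target genes of CREB and CRTC2 include enzymes of gluconeogenesis, and phosphodiesterases end the signal by hydrolysing cAMP.

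Nuclear RNA came from female mice of 2 lines. HEP-INTACT mice carry a purification tag on hepatocyte nuclei and MAC-INTACT mice on macrophage nuclei, and tagged nuclei were captured on beads (INTACT), which enriches 1 cell type without dissociating the tissue. Food was withdrawn at zeitgeber time (ZT) 12, the onset of the active phase, and livers were collected after 3, 8, 16 and 24 h, which are ZT 15, 20, 4 and 12, beside mice fed ad libitum at each time. Each line thus had 8 groups (fed and fasted at 4 times) of 4 tagged libraries, 64 in all, and 1 further library per line and condition held unpurified liver nuclei pooled from 4 mice, 16 in all. No source used here gives the strain, the age, the tag's allele and promoter or the number of mice in a tagged library, and p-values therefore measure only the variation from library to library.

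Library totals ran from 12597786 to 30089561 counts for tagged hepatocyte nuclei, from 14968505 to 44694933 for tagged macrophage nuclei and from 13246494 to 35514304 for the pools. Levels are given as CPM, counts scaled to the library total, on 1 scale over all 80 libraries. The summed level of 12 Kupffer cell and macrophage markers was 131 to 311 CPM in tagged hepatocyte nuclei, most of it from Mertk, and 5175 to 9330 CPM in tagged macrophage nuclei. Hepatocyte markers summed to 9317 to 30271 CPM in tagged hepatocyte nuclei and still to 4410 to 20990 CPM in tagged macrophage nuclei, where no marker of that list was at 0. RNA of hepatocyte genes was thus present in the tagged macrophage libraries. In library 3 of the 3 h fasted macrophage group the hepatocyte markers reached 20990 CPM against at most 10262 CPM in the other 3 libraries of its group, and its correlation with its group was the lowest of all, at 0.946.

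By the coordinates of build mm10, the members range from 8258 bases (Gcgr, chr11:120530727-120538984, plus strand) to 1301793 bases (Pde4d, chr13:108654177-109955969, plus strand). Crtc2 lies at chr3:90254281-90264125 on the plus strand, Sik1 at chr17:31844250-31855792 on the minus strand and Adcy6 at chr15:98589986-98607633 on the minus strand. Prkaca lies at chr8:83972978-83996442, Creb1 at chr1:64532804-64604548 and Pde4b at chr4:102254939-102607262, all on the plus strand. Sik2 (chr9:50892801-51009073) is on the minus strand, and Crem, also on a minus strand, spans 61238 bases. Each gene has 1 value for its whole body, introns included, so that alternative products of Crem, Pde4b and Pde4d are summed. Sik2 shares 1429 bases with Ppp2r1b on the opposite strand, and Gcgr and Adcy6 each overlap an antisense gene (Gm11789 over 1058 bases and Gm29331 over 1101 bases). No source used here says whether reads were counted by strand, so reads of these overlaps cannot be told apart.

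CREB binds the cAMP response element, whose core motif reads TGACG, or CGTCA on the other strand. The RefSeq promoter windows of GRCm38.p6, 250 bases before to 50 bases after a start site, held entries for 6 members (Gcgr, Creb1, Sik2, Pde4b, Pde4d and Prkaca), with 10 windows in all. This core motif stood in 3 of these 10 windows, 1 each of Pde4b, Prkaca and Sik2, beside 20.8% of all 32851 windows. The full palindrome TGACGTCA, which holds the motif on both strands, stood in 0 of the 10 and in 1.79% of all windows. These matches describe letters in the windows only. The windows with the motif are printed to show where it lies, each 5′ to 3′ on the gene's strand with the motif in capitals. All 6 members with windows, with the motif or without it, were called for fasting at some time in hepatocyte nuclei. The Pde4b sequence is chr4:102421305-102421554, before 1 of its annotated starts within the gene, the Prkaca sequence is chr8:83972728-83972977, and the Sik2 sequence is chr9:51009057-51009223.
Pde4b: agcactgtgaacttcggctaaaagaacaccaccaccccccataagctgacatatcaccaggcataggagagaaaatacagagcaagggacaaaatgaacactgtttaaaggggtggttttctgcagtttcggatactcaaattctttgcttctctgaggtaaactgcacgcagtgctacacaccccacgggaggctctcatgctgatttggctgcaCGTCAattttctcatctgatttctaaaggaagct
Prkaca: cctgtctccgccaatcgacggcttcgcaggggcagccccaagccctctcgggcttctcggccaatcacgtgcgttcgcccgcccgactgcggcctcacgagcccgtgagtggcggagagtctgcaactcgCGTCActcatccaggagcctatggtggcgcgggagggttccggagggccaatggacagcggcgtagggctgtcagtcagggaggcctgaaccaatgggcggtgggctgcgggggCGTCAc
Sik2: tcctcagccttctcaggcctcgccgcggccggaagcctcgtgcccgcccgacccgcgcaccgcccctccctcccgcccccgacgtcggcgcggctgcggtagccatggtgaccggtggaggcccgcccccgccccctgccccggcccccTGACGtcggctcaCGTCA

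Per kilobase of gene body, the glucagon receptor gene stood above the other members in both kinds of tagged nuclei. In hepatocyte nuclei Gcgr was at 22.5 ± 6.43 CPM per kb (SD over 32 libraries of 8 conditions), and the kinase gene Sik1 came next with 5.96 ± 2.72 CPM per kb. Crtc2, at 4.66 ± 0.772 CPM per kb, lay within the spread of Sik1, and Adcy6, the gene of an adenylyl cyclase, had 3.01 ± 0.729 CPM per kb. Crem, Sik2, Prkaca and Creb1 followed with overlapping spreads, between 1.28 and 1.49 CPM per kb. The phosphodiesterase genes, which span the longest gene bodies, were lowest, with 0.646 ± 0.188 CPM per kb for Pde4d and 0.335 ± 0.237 CPM per kb for Pde4b. In macrophage nuclei Gcgr was at 8.34 ± 3.18 CPM per kb, Crtc2 at 3.45 ± 0.652 and Sik2 at 2.16 ± 0.371. Creb1, Sik1 and Adcy6 followed at 1.80, 1.76 and 1.37 CPM per kb, with overlapping spreads, then Prkaca at 0.969 ± 0.126 and Crem at 0.685 ± 0.197 CPM per kb. Pde4b (0.310 ± 0.0816) and Pde4d (0.265 ± 0.108 CPM per kb) were again lowest, with overlapping spreads. The spreads span 8 conditions, and the levels of the genes were not tested against each other. These means over the whole gene body cover exons and introns alike. Hepatocyte markers summed to 4410 to 20990 CPM in tagged macrophage nuclei, where Gcgr was lower than in unpurified nuclei (log2 difference -1.05). The part of hepatocyte RNA in the macrophage levels, that of Gcgr included, was not tested.

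**Figure D1:**
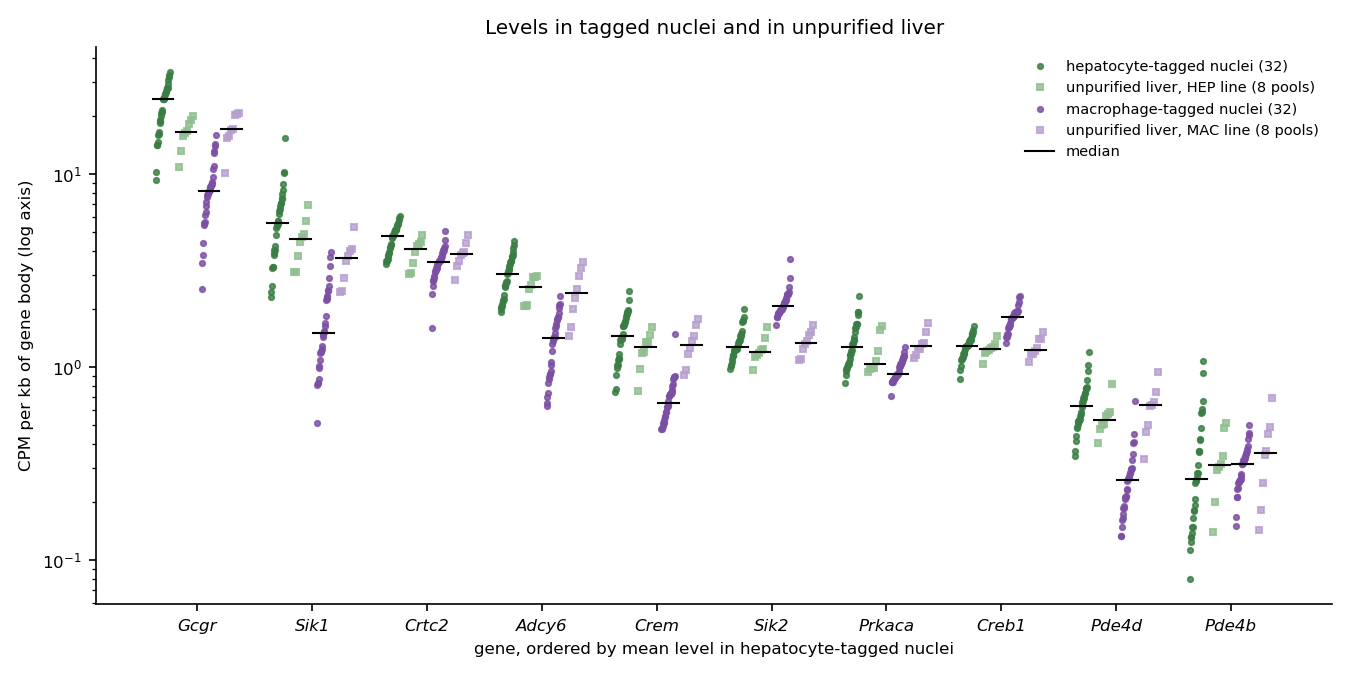
Level of the 10 genes in CPM per kb of gene body (log axis), in tagged libraries (32 per line) and pools of unpurified liver nuclei (8 per line), with the bars at the median and genes ordered by their mean in hepatocyte nuclei. Gcgr lies highest in both lines, and Sik2 and Creb1 lie higher in tagged macrophage nuclei than in tagged hepatocyte nuclei.

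Between fed hepatocyte and fed macrophage nuclei, averaged over the 4 times, 8 of the 10 members were higher in hepatocyte nuclei and 2 were lower. In the same edgeR comparison 42.7% of all genes were higher and 40.0% lower, so a call is the common outcome there. The largest member differences were those of Gcgr (log2 difference 1.72 ± 0.15 SE, edgeR adjusted p = 9.31e-16) and of Sik1, which encodes a SIK that CREB itself induces (1.59 ± 0.23, edgeR adjusted p = 2.20e-08). Pde4d followed with 1.33, Adcy6 with 1.25, Crem with 1.23, the PKA catalytic subunit gene Prkaca with 0.48, Pde4b with 0.36 and Crtc2 with 0.31. Sik2 was lower in hepatocyte nuclei, at -0.90 ± 0.05 (edgeR adjusted p = 3.33e-22), and so was Creb1, the CREB gene, at -0.59 ± 0.06 (edgeR adjusted p = 2.90e-13). The line of mice and the run of library numbers go with the cell type and cannot be told apart from it.

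Tagged nuclei were also compared with unpurified nuclei of the same line, which may come from the same mice. Against unpurified liver nuclei, tagged macrophage nuclei were higher in Sik2 (log2 difference 0.69 ± 0.07, edgeR adjusted p = 7.47e-11) and in Creb1 (0.51 ± 0.06, edgeR adjusted p = 1.45e-09). They were lower in 6 members: Pde4d (-1.22), Gcgr (-1.05), Sik1 (-1.0), Crem (-0.94), Adcy6 (-0.84) and Prkaca (-0.44), while Crtc2 (-0.14 ± 0.09, edgeR adjusted p = 0.172) and Pde4b (-0.14 ± 0.13, edgeR adjusted p = 0.306) did not pass. Of all genes, 36.2% were higher and 40.7% lower in that comparison. Tagged hepatocyte nuclei were higher than their pools in Gcgr (0.43 ± 0.11, edgeR adjusted p = 0.00209), Crtc2 (0.23 ± 0.06, edgeR adjusted p = 0.000701), Crem (0.24 ± 0.10, edgeR adjusted p = 0.0445) and Adcy6 (0.22 ± 0.08, edgeR adjusted p = 0.0251), and in no member lower, beside 28.8% of all genes higher and 21.5% lower and a median over all genes of 0.12. Crem and Adcy6 lost that call with another scaling, with no filter and with DESeq2. Between the pools of the lines edgeR and DESeq2 each called 0 of 10 members (1 at an unadjusted p under 0.05), beside 6.44% of all genes higher in the hepatocyte line and 4.57% lower. In bulk samples fewer cells of a type and less RNA per cell cannot be told apart.

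Fasting changed several of the 10 genes in hepatocyte nuclei, with members that rose and members that fell at every time. Of the 10, 3 rose and 3 fell at 3 h, 2 rose and 3 fell at 8 h, 2 rose and 2 fell at 16 h, and 3 rose and 1 fell at 24 h. Of all 12942 genes tested, 19.5% rose and 20.4% fell at 3 h, 18.0% and 20.7% at 8 h, 9.55% and 8.55% at 16 h, and 11.6% and 12.4% at 24 h. The members' counts lay near these shares or above them, as at 16 h, but 10 genes are few. The counts were not tested against the shares, and what follows describes single genes. Sik1 was the only member called at no time, and Pde4b the only one called at all 4.

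**Figure D2:**
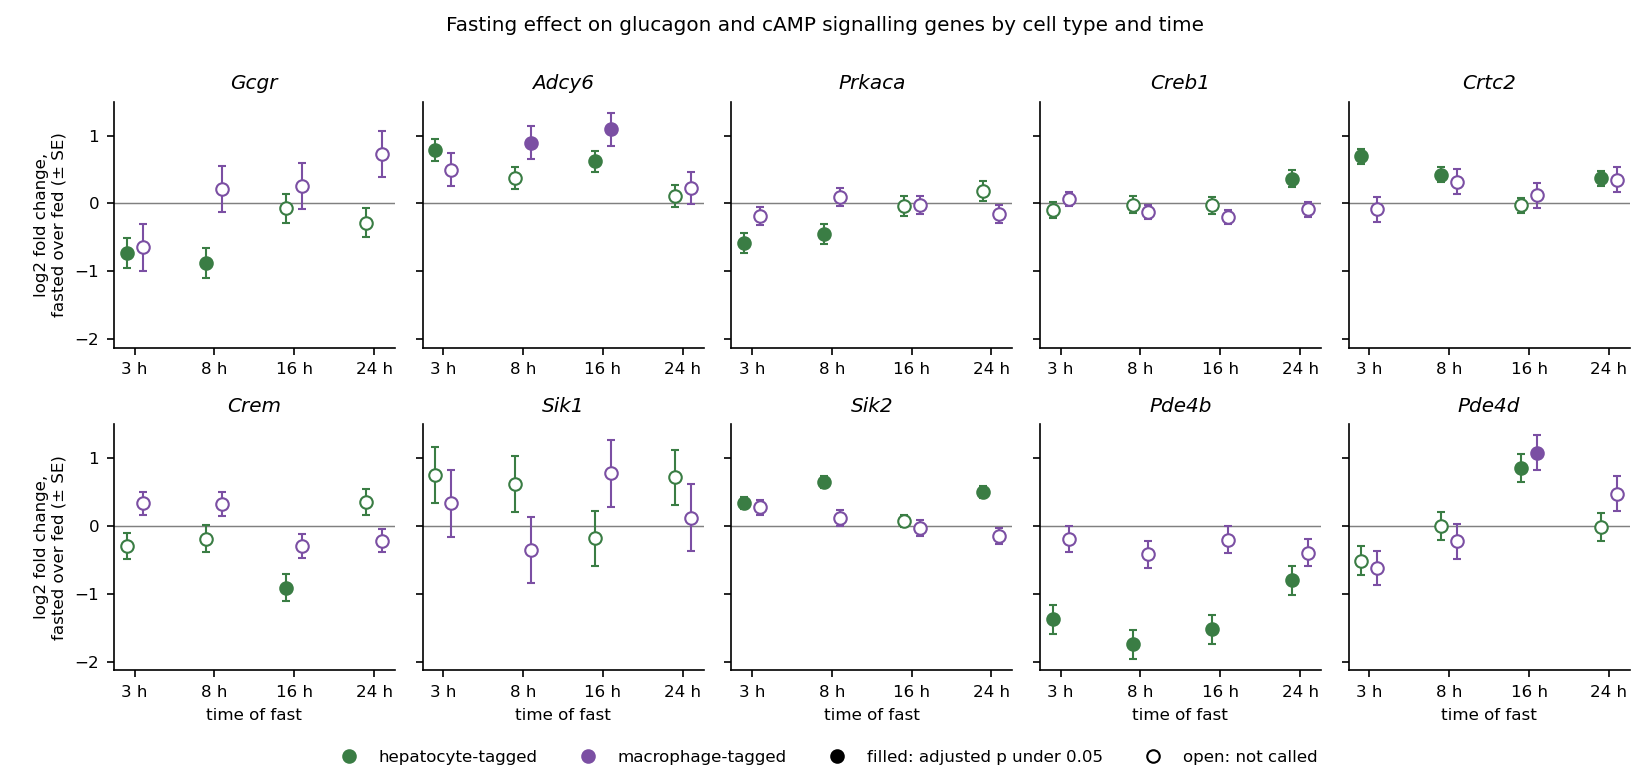
Log2 fold change of fasted over fed libraries with its SE for each gene at 3, 8, 16 and 24 h, in hepatocyte (green) and macrophage (purple) nuclei, where filled points have an edgeR adjusted p under 0.05. Pde4b lies below 0 at all times in hepatocyte nuclei, and in macrophage nuclei 3 points are filled, Adcy6 at 8 and 16 h and Pde4d at 16 h.

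Gcgr, the receptor, fell early in the fast in hepatocyte nuclei. At 3 h its fed libraries held 213, 222, 201 and 206 CPM and its fasted libraries 76.5, 205, 84.5 and 121 CPM. The groups overlap, because 1 fasted library lies among the fed ones while the other 3 lie far below. The difference was -0.73 ± 0.22 (edgeR adjusted p = 0.00858), and the call was lost without fasted library 1 or without fasted library 3, with a range of -1.06 to -0.53 over the fits that each left out 1 library. At 8 h the groups were apart, with 240.1, 230.1, 253 and 277 CPM fed and 157, 117, 117 and 132 CPM fasted, a fall of 0.88 ± 0.22 (edgeR adjusted p = 0.00205). At 16 h the values were 202, 229.6, 230.3 and 202 CPM fed and 267, 218, 155 and 173 CPM fasted, with a difference of -0.07 ± 0.22. At 24 h the difference was -0.28 ± 0.22 (edgeR adjusted p = 0.367), the groups overlapping at both times.

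Adcy6 encodes an adenylyl cyclase, an enzyme that makes cAMP. It moved the other way from the receptor gene at 3 h. Its 3 h libraries held 35.1, 36.3, 39.0 and 39.9 CPM fed and 48.7, 79.4, 53.5 and 67.3 CPM fasted, so every fasted library lay above every fed one, and it rose by 0.79 ± 0.16 (edgeR adjusted p = 0.000252). At 16 h it was at 41.8, 47.9, 46.6 and 39.1 CPM fed against 66.0, 61.6, 65.6 and 72.5 CPM fasted, again with no overlap, a rise of 0.62 ± 0.16 (edgeR adjusted p = 0.00698). In between, at 8 h, 1 fasted library of 37.5 CPM lay within the fed range of 34.0 to 49.0 CPM, and the difference of 0.38 ± 0.16 missed the threshold (edgeR adjusted p = 0.0603). With RLE scaling it passed (edgeR adjusted p = 0.0487), as it did with DESeq2 (adjusted p = 0.0477). Its fed level at 24 h, 45.6 to 69.6 CPM, covered most of the fasted range of 55.3 to 75.9 CPM, with a difference of 0.11 ± 0.16.

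Prkaca, the gene of a catalytic subunit of PKA, fell at the early times. At 3 h it was at 37.6, 39.3, 43.5 and 45.1 CPM fed and 24.1, 25.0, 25.9 and 31.0 CPM fasted. No libraries overlapped, and the fall was 0.58 ± 0.15 (edgeR adjusted p = 0.00239). At 8 h the fed libraries held 44.9, 54.7, 33.5 and 39.2 CPM and the fasted ones 39.2, 26.9, 31.1 and 24.2 CPM, which overlap. The fall of 0.45 ± 0.15 there (edgeR adjusted p = 0.0171) was lost in 4 of the 8 fits that left out 1 library, those without fasted library 2 or 4 or fed library 1 or 2. The differences at 16 h (-0.04) and 24 h (0.18 ± 0.15) did not pass, and the effect differed between the times (edgeR adjusted p = 0.0155).

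**Figure D3:**
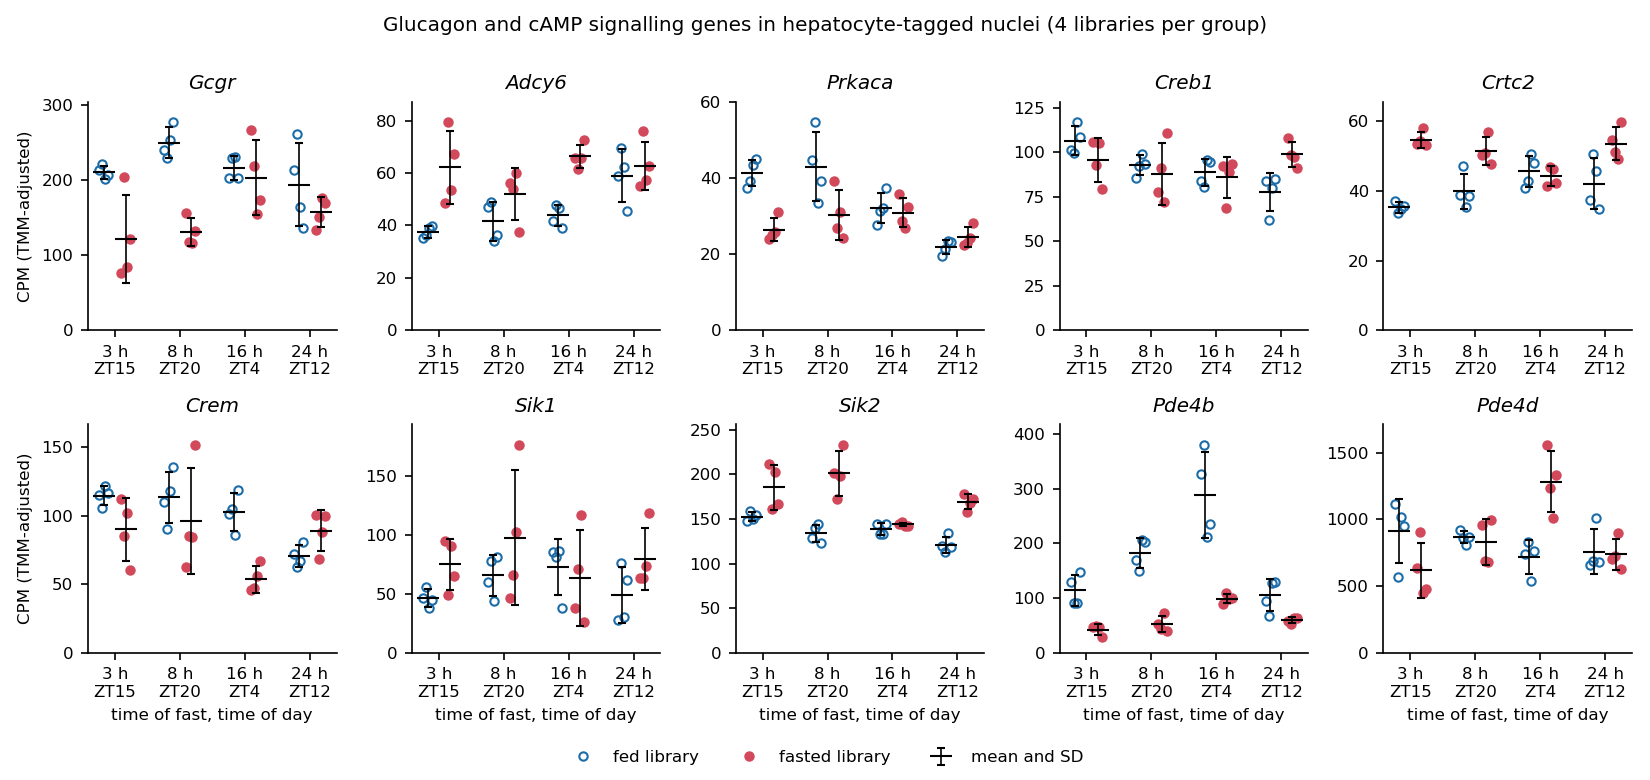
CPM of each gene in the 32 tagged hepatocyte libraries by hours of fasting and ZT, with fed libraries as open blue and fasted libraries as filled red points and the mean and SD of each group of 4. Fed Pde4b peaks at 16 h (ZT 4), and its fasted libraries lie below the fed ones at every time.

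Creb1 encodes CREB itself. At 3, 8 and 16 h it was not called, with a difference of -0.10 ± 0.12 at 3 h. At 24 h its fed libraries held 84.0, 62.2, 79.8 and 85.1 CPM and its fasted libraries 108, 98.8, 97.5 and 91.2 CPM, with no overlap and a rise of 0.36 ± 0.12 (edgeR adjusted p = 0.0300), a call lost in 5 of the 8 fits without 1 library.

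Crtc2, the gene of the coactivator that SIKs keep out of the nucleus, rose at 3, 8 and 24 h. At 3 h it was at 37.1, 33.5, 34.7 and 35.6 CPM fed and 53.3, 54.2, 58.0 and 53.1 CPM fasted, a rise of 0.69 ± 0.11 (edgeR adjusted p = 1.13e-05). These groups are narrow and well apart. The 8 h libraries were also apart, at 38.8, 47.1, 35.4 and 38.4 CPM fed and 50.3, 50.9, 57.0 and 47.6 CPM fasted (0.42 ± 0.11, edgeR adjusted p = 0.00271). At 16 h fed (40.9 to 50.6 CPM) and fasted libraries (41.3 to 47.0 CPM) covered the same range, with a difference of -0.03. At 24 h the fed libraries held 37.2, 50.5, 45.7 and 34.9 CPM and the fasted ones 54.5, 51.1, 49.0 and 59.7 CPM, of which 1 lay within the fed range. The rise of 0.37 ± 0.11 at 24 h (edgeR adjusted p = 0.0139) was lost in 3 of the 8 fits without 1 library.

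Crem encodes activators and repressors of the CREB family, among them the cAMP-induced repressor ICER, and its fasting effect differed between times (edgeR adjusted p = 0.00750). At 16 h it was at 101, 105, 85.9 and 119 CPM fed and 45.5, 47.0, 55.6 and 66.9 CPM fasted. All fasted libraries lay below all fed ones, and Crem fell by 0.91 ± 0.20 (edgeR adjusted p = 0.00175). At 24 h the values were 71.8, 62.5, 66.9 and 80.8 CPM fed and 100.2, 68.5, 88.0 and 99.4 CPM fasted, a difference of 0.35 ± 0.20 that did not pass (edgeR adjusted p = 0.197). At 8 h fasted library 4 stood at 152 CPM, above all others, while the other 3 fasted libraries held 62.8 to 85.2 CPM against 90.2 to 135 CPM fed. With that library the difference was -0.19 ± 0.20 and not called, and without it -0.48 and called.

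The SIK genes did not share 1 pattern. Sik2, the gene of the SIK with the higher level in macrophage nuclei, rose in hepatocyte nuclei at 3, 8 and 24 h. It was at 147, 158, 151 and 155 CPM fed and 211, 161, 203 and 167 CPM fasted at 3 h (0.34 ± 0.09, edgeR adjusted p = 0.00305). At 8 h it held 128, 140.2, 144 and 123 CPM fed and 201, 172, 198 and 233 CPM fasted, its largest change (0.64 ± 0.09, edgeR adjusted p = 2.01e-06). At 24 h the values were 119.6, 113, 134 and 118 CPM fed and 178, 158, 168 and 173 CPM fasted (0.50 ± 0.09, edgeR adjusted p = 0.000169). No fasted library overlapped a fed one at these 3 times. At 16 h both states lay together, at 133 to 145 CPM fed and 142 to 147 CPM fasted (0.07 ± 0.09), and the effect differed between times (edgeR adjusted p = 0.00466). The Kupffer cell and macrophage markers in these libraries, where 11 could be tested, summed to 210.1 to 224 CPM fed and 224 to 264 CPM fasted at 3 h (2 rose), to 160.0 to 184 and 191 to 262 CPM at 8 h (5 rose), and to 181 to 311 and 209 to 254 CPM at 24 h (2 rose). None of these markers had a group mean of 0, none fell, and their part in the Sik2 result was not tested.

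Sik1 encodes the SIK whose gene is itself a CREB target, and it varied widely between libraries of 1 group. At 8 h it held 60.3, 78.2, 43.6 and 81.5 CPM fed and 46.4, 66.0, 102 and 177 CPM fasted. At 3 h it held 46.7, 55.9, 38.0 and 45.0 CPM fed and 95.3, 48.8, 90.6 and 65.4 CPM fasted. The higher fasted libraries exceeded all fed ones at both times, but the groups overlapped. The differences, 0.75 ± 0.41 at 3 h (edgeR adjusted p = 0.149), 0.62 ± 0.41 at 8 h, -0.18 ± 0.41 at 16 h and 0.71 ± 0.41 at 24 h, did not pass, and their SE is larger than that of any other member. In a fit of the 8 libraries of 3 h alone the difference of 0.76 passed (edgeR adjusted p = 0.0135).

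Pde4b encodes a cAMP phosphodiesterase and showed the largest and most lasting change of the 10 genes in hepatocyte nuclei. At 3 h the fed libraries held 129.5, 90.6, 91.2 and 147 CPM and the fasted libraries 46.5, 48.7, 46.2 and 28.2 CPM (-1.38 ± 0.21, edgeR adjusted p = 1.06e-05). At 8 h they held 169.7, 149, 207 and 203 CPM fed and 52.4, 43.5, 73.3 and 39.5 CPM fasted (-1.74 ± 0.22, edgeR adjusted p = 4.11e-07). Every fasted library lay below every fed library at these and the later times. At 16 h the values were 327, 380.1, 212 and 236 CPM fed and 88.3, 109.9, 99.1 and 99.2 CPM fasted (-1.52 ± 0.21, edgeR adjusted p = 1.08e-05). At 24 h they were 95.1, 67.6, 127 and 129.7 CPM fed and 58.0, 52.1, 63.4 and 63.7 CPM fasted, the smallest of the 4 falls (-0.80 ± 0.21, edgeR adjusted p = 0.00649). Whether the effect differed between times was not called (edgeR adjusted p = 0.0666). Fed libraries themselves differed over the day (edgeR adjusted p = 9.07e-06), with group means of 115 CPM at ZT 15, 182 CPM at ZT 20, 289 CPM at ZT 4 and 105 CPM at ZT 12. The fasted group means, 42.4, 52.2, 99.1 and 59.3 CPM, were highest at the same time of day and also differed (edgeR adjusted p = 0.000248).

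Pde4d, the gene of a second phosphodiesterase of the same family, did not follow Pde4b. At 16 h, with Pde4b down, Pde4d was at 738, 829.8, 541 and 764 CPM fed and 1559, 1236, 1007 and 1335 CPM fasted. The fasted libraries all lay above the fed ones, and Pde4d rose by 0.86 ± 0.21 (edgeR adjusted p = 0.00454). At 3 h it held 1115, 570.0, 1021 and 949.5 CPM fed and 639, 902, 449 and 479 CPM fasted, a difference of -0.51 ± 0.21 that missed the threshold (edgeR adjusted p = 0.0508) and passed it without fasted library 2 or fed library 2, the libraries nearest to the other group. At 8 and 24 h the differences were -0.00 and -0.02, and the effect differed between times (edgeR adjusted p = 0.00539). At 16 h the stellate cell markers summed to 103 to 154 CPM fed and 42.3 to 66.4 CPM fasted in these libraries, and their part in the 16 h results was not tested.

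Across these tests the effect of fasting in hepatocyte nuclei differed between times for 5 of 10 members (Crem, Crtc2, Sik2, Pde4d and Prkaca), beside 32.8% of all genes. Time of day in fed mice was called for Pde4b, Prkaca (edgeR adjusted p = 5.22e-05), Adcy6 (0.00633 by edgeR), Crem (0.0295 by edgeR) and Crtc2 (0.0418 by edgeR), 5 of 10 beside 30.1% of all genes. Prkaca in fed mice went from group values of 33.5 to 54.7 CPM at ZT 20 to 19.4 to 23.5 CPM at ZT 12, and fed Adcy6 was highest at ZT 12. Fasted libraries differed over the course for Gcgr, Crem, Crtc2, Sik2, Pde4b and Pde4d, 6 of 10 beside 44.9% of all genes, and that course mixes the length of the fast with the time of day. The calls of Crem and Crtc2 over the fed day and of Gcgr and Crtc2 over the fasted course were each lost in 4 to 8 of the 16 fits without 1 library. Fasted and fed libraries did not overlap in 16 of the 40 comparisons of a member at a time, 9 with fasted above and 7 below. Over all genes tested and the 4 times together, 29.6% did not overlap, 12.8% with fasted above and 16.8% below. The exact two-sided permutation p of each of these is 0.0286, the smallest that 4 against 4 libraries allow.

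The rest of the pathway was taken from lists by role, some of which hold members. The lists were chosen with earlier results of these data known, so their counts and medians are description only. The name of a list gives a role of its genes, and what caused their changes was not tested. In hepatocyte nuclei at 3 h, 9 of the 19 tested cAMP-induced CREB target genes rose and 2 fell (Per2 and Pde4b), with a median log2 fold change of 1.20 beside -0.03 over all genes. At 8 h 7 rose and 2 fell (median 0.79, all genes -0.02), at 16 h 2 rose and 2 fell (median -0.15, all genes 0.01) and at 24 h 2 rose and 2 fell (median 0.49, all genes -0.01). Those that rose at 3 h were Cebpb, Dusp1, G6pc, Irs2, Junb, Nr4a1, Pck1, Per1 and Ppargc1a. Pck1, a rate-limiting enzyme of gluconeogenesis, was at 245 ± 172 CPM fed and 2382 ± 135 CPM fasted at 3 h (SD, n = 4 each, 3.34 ± 0.55 SE, edgeR adjusted p = 2.66e-05). Ppargc1a, a coactivator of gluconeogenic genes, was at 111 ± 5.17 CPM fed and 570.4 ± 317 CPM fasted (2.41 ± 0.55 SE, edgeR adjusted p = 0.000946). Of the 4 members on this list, Pde4b fell at 3 h, and Sik1 (0.75), Crem (-0.29) and Pde4d (-0.51) were not called. The shares of all genes that rose and fell were 19.5% and 20.4% at 3 h, 18.0% and 20.7% at 8 h, 9.55% and 8.55% at 16 h, and 11.6% and 12.4% at 24 h, and they are the background of this and the following list counts.

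Upstream of cAMP, 5 of the 10 adenylyl cyclase genes rose in hepatocyte nuclei at 3 h and 1 fell (median 0.54 beside -0.03 over all genes, of which 19.5% rose and 20.4% fell). At 8 h 3 rose and 1 fell (median 0.40 beside -0.02, with 18.0% and 20.7% of all genes), at 16 h 2 rose and 1 fell (median -0.13 beside 0.01) and at 24 h 1 rose (median 0.34 beside -0.01). Beside Adcy6, the soluble cyclase gene Adcy10 rose by 1.98 ± 0.35 (edgeR adjusted p = 4.96e-05) and the low Adcy1 from 0.262 ± 0.225 to 3.11 ± 2.86 CPM (SD, n = 4 each, edgeR adjusted p = 0.00780) at 3 h, and Adcy5 fell by 0.99 ± 0.27 (edgeR adjusted p = 0.00462). Of 8 tested receptor genes that couple to the stimulatory G protein, 2 rose and 1 fell at 3 h, 2 rose and 3 fell at 8 h, 1 fell at 16 h and edgeR called 0 at 24 h, where 1 passed at an unadjusted p under 0.05 (medians 0.18, -0.67, -0.31 and -0.02). Gcgr was among those that fell at 3 and 8 h. The list of G protein alpha subunit genes held both the stimulatory and the inhibitory class. Of these, 1 of 6 rose at 3 h, 3 at 8 h, 1 at 16 h and 3 at 24 h with none falling (medians 0.07, 0.20, 0.24 and 0.29). Among them were Gnas, which encodes the stimulatory subunit itself (0.60 ± 0.13 at 8 h, edgeR adjusted p = 0.000739), and Gnal of the same class (1.34 ± 0.29 at 3 h, edgeR adjusted p = 0.000454). Genes of the inhibitory class also rose, the low Gnai1 by 1.18 ± 0.37 at 8 h (edgeR adjusted p = 0.0121), a call lost without fasted library 4, and Gnai3 by 0.46 ± 0.11 at 24 h (edgeR adjusted p = 0.00352). Rgs16, a regulator of G protein signalling, rose from 3.03 ± 1.16 to 85.7 ± 21.8 CPM (SD, n = 4 each) at 3 h (4.85 ± 0.68 SE, edgeR adjusted p = 3.46e-06), and Grk5, a receptor kinase, fell by 0.82 ± 0.17 at 8 h (edgeR adjusted p = 0.000324).

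Of 16 phosphodiesterase genes, 1 rose and 4 fell at 3 h (median -0.35), 1 rose and 4 fell at 8 h (median -0.02), 2 rose and 2 fell at 16 h (median -0.13) and 2 rose and 1 fell at 24 h (median 0.11). Over all genes the medians were -0.03, -0.02, 0.01 and -0.01, and 20.4% fell at 3 h and 20.7% at 8 h, so 4 of 16 is near the share of the whole table. Pde4a fell with Pde4b at 3 h, by 1.20 ± 0.21 (edgeR adjusted p = 4.35e-05), and Pde4c fell by 1.22 ± 0.21 at 16 h (edgeR adjusted p = 0.000148), when Pde4d rose. Pde2a rose by 1.39 ± 0.25 at 24 h (edgeR adjusted p = 0.000253).

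Among 8 tested PKA subunit and inhibitor genes, 2 rose and 2 fell at 3 h, 1 rose and 1 fell at 8 h, 1 rose at 16 h and 2 rose at 24 h, beside 19.5% of all genes that rose and 20.4% that fell at 3 h and 11.6% that rose at 24 h. Prkar1a, a regulatory subunit, rose by 0.57 ± 0.12 at 3 h (edgeR adjusted p = 0.000373) and the inhibitor gene Pkia fell by 1.09 ± 0.32 (edgeR adjusted p = 0.00800), beside the fall of Prkaca. Of the 8 CREB family and coactivator genes 4 rose and none fell at 3 h, 1 rose at 8 h, 1 fell at 16 h and 4 rose at 24 h (medians 0.17, 0.04, -0.06 and 0.33), beside 19.5% of all genes rising at 3 h and 11.6% at 24 h. At 3 h these were Crtc2, Crebbp (0.42 ± 0.10, edgeR adjusted p = 0.00132), Ep300 (0.34 ± 0.11, edgeR adjusted p = 0.0157) and Atf1 (0.26 ± 0.09, edgeR adjusted p = 0.0174), the last not without fed library 2. A list of 10 genes held the SIKs, their upstream kinase LKB1, the related AMPK catalytic subunits (Prkaa1 and Prkaa2) and class IIa histone deacetylases. Of these 3 rose at 3 h and none fell, 2 rose and 1 fell at 8 h, edgeR called 0 at 16 h (0 also at an unadjusted p under 0.05) and 2 rose and 2 fell at 24 h, with Sik3 at 3 h at 0.89 ± 0.14 (edgeR adjusted p = 1.21e-05) beside Sik2 and Prkaa1, the latter again not without fed library 2. Rapgef4, an exchange factor that cAMP activates directly, rose by 1.0 ± 0.24 at 3 h (edgeR adjusted p = 0.00132). The low anchoring protein gene Akap12 fell by 1.54 ± 0.32 at 8 h, from 1.85 ± 0.339 to 0.625 ± 0.181 CPM (SD, n = 4 each, edgeR adjusted p = 0.000361). Anchoring protein genes of higher level rose at 3 h, Akap8l by 0.59 ± 0.11 (edgeR adjusted p = 7.71e-05) and Akap8 by 0.39 ± 0.09 (edgeR adjusted p = 0.00116). Akap9 rose by 0.38 ± 0.11 at 16 h (edgeR adjusted p = 0.0136), a call that 3 of 13 other fits lost.

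In macrophage nuclei fewer members were called. By edgeR, 0 of the 10 were called at 3 h, 1 rose at 8 h, 2 rose at 16 h and 0 were called at 24 h, and none fell at any time. At an unadjusted p under 0.05, 3 members passed at 3 h and 1 at 24 h, and DESeq2 called 0 at 3 h and 0 at 24 h. Of all 13864 genes tested, 7.70% rose and 4.68% fell at 3 h, 7.44% and 5.40% at 8 h, 7.72% and 5.99% at 16 h, and 5.31% and 6.35% at 24 h. Hepatocyte markers were higher in fasted than fed libraries of these nuclei. At 3 h they summed to 5588 to 9191 CPM fed and up to 20990 CPM fasted, with every fasted library above every fed one. At 8 h the sums were 4410 to 6403 CPM fed and 8718 to 10275 CPM fasted. At 16 h they began at 4930 CPM in fed libraries, all of which lay below the fasted range of 6787 to 8650 CPM, and at 24 h they were 5722 to 11480 CPM fed and 9690 to 13961 CPM fasted. Of the 12 markers, 3 rose and none fell at 3 h, 6 rose and 1 fell at 8 h, 2 rose at 16 h and 1 rose at 24 h. In tagged hepatocyte nuclei the mean of the same sum was higher in fasted libraries at 3, 8 and 24 h and lower at 16 h. It was 16058 CPM fed and 24830 CPM fasted at 3 h, and 22234 and 26825 CPM at 24 h. At 8 h it was 15939 CPM fed and 17033 CPM fasted, and at 16 h 16886 and 15287 CPM. How much hepatocyte RNA the macrophage libraries held, and whether that amount changed with fasting, was not tested. The part of hepatocyte RNA in the changes of members that are higher in hepatocyte nuclei, such as Adcy6, Pde4d and Gcgr, was not tested either.

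**Figure D4:**
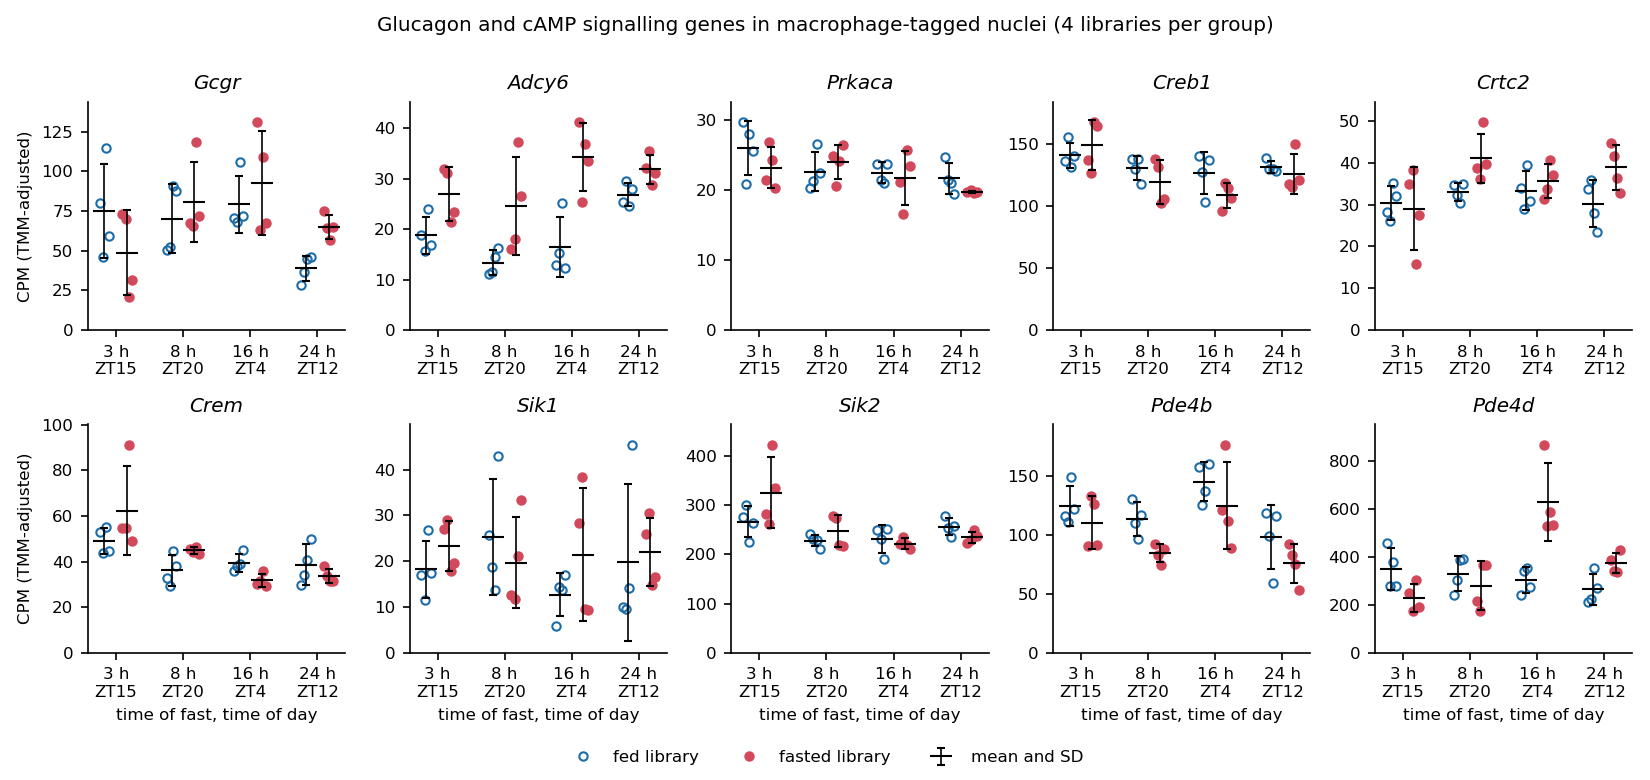
CPM of each gene in the 32 tagged macrophage libraries by hours of fasting and ZT, with fed libraries as open blue and fasted libraries as filled red points and the mean and SD of each group of 4. At 16 h the fasted libraries of Adcy6 and Pde4d lie above all fed ones, while those of Pde4b overlap the fed ones.

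Adcy6 rose in macrophage nuclei at 16 h, from 13.0, 15.3, 25.2 and 12.3 CPM fed to 41.1, 25.3, 36.9 and 33.6 CPM fasted (1.09 ± 0.24, edgeR adjusted p = 0.00374). The groups just fail to meet, at 25.2 and 25.3 CPM. At 8 h it was at 11.1, 11.4, 14.5 and 16.2 CPM fed and 16.1, 18.0, 37.3 and 26.6 CPM fasted, which overlap by 1 library on each side, and the rise of 0.89 ± 0.24 (edgeR adjusted p = 0.0158) was lost without fed library 1, fed library 2 or fasted library 3. Pde4d was at 243, 343, 354 and 275 CPM fed and 866, 528, 585 and 534 CPM fasted at 16 h, a rise of 1.08 ± 0.26 (edgeR adjusted p = 0.00604) with no overlap. The Pde4d effect differed between times in macrophage nuclei (edgeR adjusted p = 0.0163), the only member of 10 beside 4.65% of all genes. Of the other members, Pde4b was at 130.1, 110.2, 96.1 and 116 CPM fed and 92.2, 82.7, 74.3 and 88.1 CPM fasted at 8 h. These Pde4b groups do not overlap, yet the difference of -0.42 ± 0.20 did not pass (edgeR adjusted p = 0.166). Gcgr at 24 h was at 28.7, 36.3, 44.8 and 45.8 CPM fed and 74.9, 64.4, 56.5 and 65.0 CPM fasted, also with no overlap and not called (0.72 ± 0.34, edgeR adjusted p = 0.187).

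Fasted and fed macrophage libraries did not overlap in 5 of 40 comparisons, 4 with fasted above and 1 below, beside 18.6% over all genes tested and the 4 times together (10.6% above and 8.06% below). Without library 3 of the 3 h fasted group that stands apart, the number of all genes called at 3 h was 702 in place of 1716, and still 0 members were called. That library held Crem at 91.2 CPM against 48.9 to 54.6 CPM in the others of its group, Crtc2 at 15.7 CPM against 27.5 to 38.2 CPM and Sik2 at 423 CPM against 262 to 335 CPM. Over the day in fed mice 1 member, Adcy6, was called (edgeR adjusted p = 0.0171), beside 12.8% of all genes, and without fed library 4 of 24 h it was not (edgeR adjusted p = 0.0571). Over the fasted course Crem (edgeR adjusted p = 0.000317), Pde4d (0.000278 by edgeR), Sik2 (0.00199 by edgeR), Creb1 (0.00908 by edgeR) and Pde4b (0.0123 by edgeR) were called, 5 of 10 beside 38.1% of all genes. Without the library that stands apart Creb1 was not (edgeR adjusted p = 0.0524).

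In the pathway lists, 5 of the 20 tested CREB target genes rose in macrophage nuclei at 3 h (median 0.33 beside -0.05 over all genes, of which 7.70% rose and 4.68% fell). At 8 h 3 rose (median 0.37 beside 0.01, with 7.44% and 5.40% of all genes), at 16 h 4 rose (median 0.88 beside 0.04, with 7.72% and 5.99%) and at 24 h 1 rose (median 0.47 beside -0.00, with 5.31% and 6.35%), and none of the list fell at any time. Ppargc1a rose by 2.35 ± 0.33 at 3 h (edgeR adjusted p = 5.05e-05), Pck1 by 2.97 ± 0.53 (edgeR adjusted p = 0.000527) and Tat by 1.65 ± 0.49 (edgeR adjusted p = 0.0275), a call that 4 of the 8 fits without 1 library lost. At 3 h Ppargc1a was at 41.0 ± 7.74 CPM fed and 211 ± 144 CPM fasted in macrophage nuclei (SD, n = 4 each). In hepatocyte nuclei it was higher, at 111 ± 5.17 and 570 ± 317 CPM, with a similar rise of 2.41 ± 0.55 SE. Pck1 and Tat are genes of hepatocyte metabolism, and Tat is itself on the list of hepatocyte markers. The part of hepatocyte RNA in the macrophage values of Ppargc1a, Pck1 and Tat was not tested. Per1, a clock gene that CREB induces, rose by 1.70 ± 0.34 at 8 h (edgeR adjusted p = 0.00161). Sik3 rose by 0.67 ± 0.14 at 8 h (edgeR adjusted p = 0.00196), and Pde2a rose by 0.99 ± 0.18 at 24 h (edgeR adjusted p = 0.000367). The prostaglandin E2 receptor gene Ptger2, which macrophages use to raise cAMP, rose at 3 h from 16.4 ± 5.55 to 39.2 ± 18.1 CPM (SD, n = 4 each, edgeR adjusted p = 0.00537). The Ptger2 call was lost in the fit of only the 8 libraries of 3 h.

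The difference of the fasting effects between the cell types was tested directly, as hepatocyte minus macrophage log2 fold change. Pde4b fell more in hepatocyte nuclei at 3 h (-1.13 ± 0.30, edgeR adjusted p = 0.00881) and at 8 h (-1.25 ± 0.30, edgeR adjusted p = 0.00483), and at 16 h (-1.25 ± 0.29, edgeR adjusted p = 0.0321), where the call was lost in 7 of the 16 fits without 1 library. At 24 h the difference of -0.41 ± 0.30 did not pass. Sik2 rose more in hepatocyte nuclei at 8 h (0.59 ± 0.15, edgeR adjusted p = 0.00782) and at 24 h (0.64 ± 0.15, edgeR adjusted p = 0.00815). In macrophage nuclei Sik2 was at 278, 255, 236 and 257 CPM fed and 223, 229.6, 249.5 and 237 CPM fasted at 24 h, which overlap. Crtc2 rose more in hepatocyte nuclei at 3 h (0.82 ± 0.21, edgeR adjusted p = 0.00829), and without the library that stands apart the difference was 0.62 (edgeR adjusted p = 0.0264). The other differences were not called, Gcgr at 8 and 24 h included (-1.01 ± 0.40 at each). Among all genes, 6.20% had a higher effect in hepatocyte nuclei at 3 h and 4.40% a lower one, with 3.86% and 3.76% at 8 h, 0.407% and 0.128% at 16 h, and 2.10% and 1.95% at 24 h. Members were called higher in 1, 1, 0 and 1 and lower in 1, 1, 1 and 0 of 10 at these times.

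The pools of unpurified liver nuclei hold no purification step and gave a reading of fasting over the 4 times and both lines. The sample labels do not say whether the pooled mice also gave the tagged libraries, so this reading may not be independent of them. Of the 10 members 3 rose, Adcy6 (0.40 ± 0.10, edgeR adjusted p = 0.00848), Crtc2 (0.34 ± 0.08, edgeR adjusted p = 0.00820) and Sik2 (0.30 ± 0.07, edgeR adjusted p = 0.00701), beside 12.1% of all genes. Pde4b (-0.92 ± 0.19, edgeR adjusted p = 0.00438) and Prkaca (-0.35 ± 0.08, edgeR adjusted p = 0.00539) fell, beside 14.9% of all genes. Pde4b was at 103, 170.4, 179.5 and 111 CPM in the fed pools of the hepatocyte line at 3, 8, 16 and 24 h and at 49.3, 70.1, 107 and 122 CPM in the fasted ones. In the macrophage line it was at 171, 159, 243 and 129 CPM fed and at 87.8, 64.3, 124 and 50.1 CPM fasted. The fasted pool was lower in 7 of the 8 pairs, with the 24 h pair of the hepatocyte line as the exception. Adcy6 was higher in the fasted pool in 8 of 8 pairs, by 1.07 to 1.83 times.

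The authors' deposited tables of cell-type-selective genes listed 7 members for hepatocytes, and Sik2 and Creb1 for macrophages. In the authors' deposited table the log2 fold change of Crtc2 at 3 h was 0.69 (adjusted p = 3.94e-05), that of Crem at 16 h -0.91 (adjusted p = 7.63e-05) and that of Gcgr at 8 h -0.84 (adjusted p = 0.0124). The authors' deposited table gave Crtc2 at 24 h as 0.38 with an adjusted p of 0.0628, which is not under 0.05. Pde4b was in neither of the authors' deposited tables.

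Over the 32 tagged hepatocyte libraries, the genes whose log2 CPM followed Pde4b most closely were Ddx60 (Pearson r = 0.905), Ttc39b (0.902) and Ntrk2 (0.886). For Gcgr they were Tep1 (r = 0.912), Stoml1 (0.903) and A230050P20Rik (0.896). The closest gene to Sik2 was Pex14 (0.862), to Crtc2 S100pbp (0.837) and to Prkaca Tjp3 (0.863). In tagged macrophage nuclei the closest gene to Gcgr was Nipsnap1 (0.938), to Sik2 Btbd1 (0.918) and to Creb1 Far1 (0.918). Among the members themselves, Crem and Adcy6 ran opposite in hepatocyte nuclei (r = -0.775), as did Gcgr and Sik2 (-0.712), and Creb1 and Sik2 ran together in macrophage nuclei (0.813). These values describe 32 libraries each, which share their conditions, depth and scaling, and the genes in each pair were measured in the same libraries.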

How the data were processed

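Nuclear RNA of tagged hepatocyte nuclei, tagged macrophage nuclei and unpurified liver nuclei was sequenced from total RNA with a stranded kit and 50-base paired reads, per the labels' protocols. Build mm10, STAR 2.4.2a and DESeq2 1.24.0 are named in the submitters' processing notes, while no source used here gives the counting tool, its annotation or its strand setting. The deposited table gives unnormalized read counts per gene, with a length that equals gene end minus start, so levels per kb refer to the gene body. In the authors' tables of cell-type-selective genes the deposited signal per library is the count divided by a size factor, beside the authors' log2 fold changes and adjusted p-values. Columns were matched to samples by title, and 0 columns were left unmapped.

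Counts were tested in R 4.3.3 with the robust quasi-likelihood F-test of edgeR 4.0.16 after filterByExpr (count minimum 10, total minimum 15) and TMM scaling, with Benjamini-Hochberg adjustment over all genes tested and a threshold of 0.05. Fasted groups were tested against fed groups of equal time, with the 32 tagged libraries of a cell type in 1 model. The difference between cell types came from a fit to all 64, tagged nuclei against pools from fits within a line with condition as a term, and fasting in the pools from a fit with line and time. Each SE was computed from the F statistic, and CPM use TMM-adjusted totals of all 80 libraries. The procedure was tested on simulated data. Alternatives were RLE scaling, no filter, DESeq2 1.42.0, a fit of 8 libraries, the run of library numbers as a term, and each library left out.

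The 10 members and the gene lists were chosen with earlier results of these data known. Named pathway genes are up to 4 non-members per list and cell type, called in a fasting comparison, at a mean of at least 1 CPM, in order of absolute log2 fold change. Other genes of a list that are named (Per2, and the CREB targets that rose at 3 h) were chosen after their values were seen. The text gives examples of these, and the result of 1 of them is not reported here. Likeness is the Pearson correlation of log2 CPM over 32 libraries. Of the listed genes, 3 were not matched by symbol (Akap2, Grk2 and Grk3). Coordinates are those of mm10, and promoter windows come from RefSeq. Replicates were numbered in accession order and pair no samples.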

Additional observations from a re-analysis of the deposited data

Results flagged for a closer look

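In 11 of the 160 groups of 4 tagged libraries of a member, 1 library stood apart from the other 3 by a gap that, as a share of the group's range, is above Dixon's 95% critical value, which chance gives in about 1 of 20 groups. In hepatocyte nuclei these were Pde4b at 28.2 CPM in 3 h fasted library 4 against 46.2 to 48.7 CPM in the others (gap over range 0.877), Sik1 at 37.8 CPM in 16 h fed library 4 against 81.4 to 86.8 CPM (0.890), and Pde4d at 1008 CPM in 24 h fed library 3 against 661 to 685 CPM (0.932). The other 8 were in macrophage nuclei. Gcgr stood at 118 CPM in 8 h fasted library 3 against 65.5 to 72.2 CPM (0.875) and at 106 CPM in 16 h fed library 3 against 68.1 to 71.7 CPM (0.904). Creb1 stood at 149.9 CPM in 24 h fasted library 3 against 115 to 121 CPM (0.846) and at 139 CPM in 24 h fed library 1 against 128 to 130.0 CPM (0.847). Crem stood at 91.2 CPM in 3 h fasted library 3 against 48.9 to 54.6 CPM (0.865), and Sik1 at 45.4 CPM in 24 h fed library 4 against 9.53 to 14.0 CPM (0.875). Pde4d stood at 866 CPM in 16 h fasted library 1 against 528 to 585 CPM (0.832), and Prkaca in 24 h fasted library 2 by a ratio of 0.846 at values that differ little.

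The fasting effect differed between hepatocyte and macrophage nuclei, by a test of the difference itself, for Crtc2 at 3 h (0.82), for Pde4b at 3 h (-1.13), 8 h (-1.25) and 16 h (-1.25), and for Sik2 at 8 h (0.59) and 24 h (0.64), as log2 differences of hepatocyte minus macrophage effects. It differed between the 4 times in hepatocyte nuclei for Sik2 (edgeR adjusted p = 0.00466), Crtc2 (0.00516 by edgeR), Pde4d (0.00539 by edgeR), Crem (0.00750 by edgeR) and Prkaca (0.0155 by edgeR), and in macrophage nuclei for Pde4d (edgeR adjusted p = 0.0163).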

How the results depend on the processing

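No paired analysis was possible because the labels give no replicate numbers. A term for the run of library numbers changed 0 of 80 calls of members. RLE scaling changed 3 of 230, no filter 3 of 230 and DESeq2 5 of 230, and a fit of only the 8 libraries of a time changed 7 of 80. In that 8-library fit Gcgr at 3 h (edgeR adjusted p = 0.0566), Prkaca at 8 h (0.0842) and Crtc2 at 24 h (0.0714) were no longer called in hepatocyte nuclei, nor was Adcy6 at 8 h in macrophage nuclei (0.0634), while Sik1 at 3 h in hepatocyte nuclei (0.0135) and Pde4b at 8 h (0.0272) and Gcgr at 24 h (0.0164) in macrophage nuclei were called. Against the pools, members higher in hepatocyte-tagged nuclei went from 4 to 2 with RLE, no filter and DESeq2 alike, as Crem (0.0865, 0.0763 and 0.0877) and Adcy6 (0.0535, 0.0669 and 0.0507) lost their calls. DESeq2 added Creb1 (0.0389) and Sik2 (0.0293) to the genes with a fed time of day in hepatocyte nuclei, and no filter removed Crtc2 (0.0556).

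Counts of all genes called moved as follows. With 8 libraries, 2343 at 16 h in hepatocyte nuclei became 885, and in macrophage nuclei 1716 at 3 h became 247 (194 higher, 53 lower), 1901 at 16 h became 989 (455 higher, 534 lower), and members called at 24 h went from 0 to 1. DESeq2 called 1632 in place of 645 genes for a difference between times in macrophage nuclei. For the cell-type difference at 16 h, 75 became 48 with no filter and 148 with DESeq2. The split of genes higher and lower in hepatocyte-tagged nuclei than in pools was 3881 and 2890, with no filter 2934 and 3731 and with DESeq2 3135 and 3543. For the cell-type difference at 3 h it was 869 and 616, with RLE 684 and 746 and with DESeq2 850 and 908.

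Leaving out 1 library at a time gave 1485 to 2540 genes at 16 h in hepatocyte nuclei. In macrophage nuclei it gave 702 to 2720 at 3 h, 702 to 1741 at 8 h (1781 with all), 922 to 2270 at 16 h, and 1134 to 1721 over the fed day (1771 with all). For the cell-type difference it gave 989 to 1704 at 3 h (1485 with all), 696 to 1162 at 8 h (1068 with all), 24 to 130 at 16 h and 246 to 900 at 24 h (567 with all), and 932 to 1724 between the lines' pools (1508 with all). Members called ranged from 3 to 5 over the fed day in hepatocyte nuclei, and from 0 to 1 in macrophage nuclei at 3, 8 and 24 h and over the fed day, and for the cell-type difference at 16 h.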
